A study of Mus musculus with 2 samples.

Results

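The genes described here are 6 that mark inflammatory monocytes of the mouse, Ly6c1, Ly6c2, Chil3, F13a1, Plac8 and Ccr2. They were set by name, and all 6 were found among the 28692 genes of the count tables. They were followed in single cells of A20 tumours from mice given TAK-981 or its vehicle. TAK-981, entered in the labels as TAK-981-001-J, blocks the activating enzyme of SUMO, a small modifier protein that is joined to many nuclear proteins. A20 is a lymphoma line of B cell origin from the BALB/c strain, here grown under the skin of BALB/c hosts. The TAK-981 arm received 7.5 mg/kg into a vein and the control arm 20% HPbCD, a cyclodextrin, by the same route. Tumours were taken 8 h later, pressed through a filter, freed of dead cells and counted with the 10x Genomics 5′ kit. Age, sex and the number of mice per library are not stated in the labels.

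Each arm was 1 library, and the arms could not be tested against each other. Every difference below is between those 2 libraries and has no replicate check. Intervals are 95% and cover counting error only, for counts of unique molecular identifiers (UMIs, each standing for 1 captured RNA molecule). The TAK-981 library was the shallower, with 37470319 UMIs over 2396 barcodes against 57471750 over 2579. Mitochondrial genes gave 10% or more of the UMIs in 376 and 124 barcodes, which were left out, and 11 barcodes occurred in both libraries.

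Inflammatory, or classical, monocytes are made in the bone marrow and leave it by way of the chemokine receptor CCR2. They enter inflamed tissue and tumours, where they can turn into macrophages and then lose the surface protein Ly6C by which they are sorted. Ly6C is no marker of monocytes alone: it is also carried by activated and memory CD8 T cells and by plasmacytoid dendritic cells.

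Ly6c1 and Ly6c2 encode near-identical forms of Ly6C and lie next to each other on chromosome 15. Their coding sequences, of 393 bases in 3 exons each, differed at 9 bases and were 97.7% identical, and the longest run without a difference was 188 bases. The first 180 coding bases of each are shown, since 6 of the 9 differences fall there and since reads of a 5′ kit start near this end. They are from GENCODE release M21 on GRCm38, minus strand, with the coding region of Ly6c1 at chr15:75045405-75048511 and that of Ly6c2 at chr15:75108546-75111667. Capitals mark the bases that differ.
Ly6c1: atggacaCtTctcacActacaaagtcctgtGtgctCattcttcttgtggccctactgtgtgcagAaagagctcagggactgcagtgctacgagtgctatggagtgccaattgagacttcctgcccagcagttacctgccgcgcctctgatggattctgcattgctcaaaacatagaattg
Ly6c2: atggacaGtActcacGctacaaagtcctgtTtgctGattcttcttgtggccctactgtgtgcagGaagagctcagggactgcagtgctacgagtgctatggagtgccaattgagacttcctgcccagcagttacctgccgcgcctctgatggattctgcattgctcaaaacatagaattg
A read from a stretch without a capital fits either gene, so the counts of the pair are uncertain gene by gene, and their sum is given as well. The share of the pair's UMIs that was assigned to Ly6c1 was 31.0% (27.8 to 34.2%) in TAK-981 myeloid cells and 28.1% (23.4 to 33.2%) in vehicle myeloid cells. In T cells it was 29.1% and 27.2%. The intervals of the libraries overlapped in both classes.

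Promoters are shown for the surface pair and for Chil3, which had the largest difference of the 6 in myeloid cells. Each is the 250 bases before the RefSeq gene start on GRCm38.p6, minus strand: chr15:75048838-75049087 for Ly6c1, chr15:75111972-75112221 for Ly6c2 and chr3:106167565-106167814 for Chil3. In the Ly6c pair, capitals mark runs of 15 or more bases that both promoters hold, which make up 35 bases of each. In Chil3 they mark a match to TTCNNNGAA.
Ly6c1: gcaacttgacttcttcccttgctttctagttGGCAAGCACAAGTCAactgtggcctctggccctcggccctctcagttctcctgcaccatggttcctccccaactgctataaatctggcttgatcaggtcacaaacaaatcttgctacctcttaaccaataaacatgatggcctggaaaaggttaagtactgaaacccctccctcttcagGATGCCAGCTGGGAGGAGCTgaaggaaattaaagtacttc
Ly6c2: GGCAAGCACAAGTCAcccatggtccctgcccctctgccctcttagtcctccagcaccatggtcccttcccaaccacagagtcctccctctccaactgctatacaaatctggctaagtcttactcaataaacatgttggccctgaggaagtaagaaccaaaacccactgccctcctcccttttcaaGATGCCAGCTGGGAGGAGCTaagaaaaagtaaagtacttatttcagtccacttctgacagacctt
Chil3: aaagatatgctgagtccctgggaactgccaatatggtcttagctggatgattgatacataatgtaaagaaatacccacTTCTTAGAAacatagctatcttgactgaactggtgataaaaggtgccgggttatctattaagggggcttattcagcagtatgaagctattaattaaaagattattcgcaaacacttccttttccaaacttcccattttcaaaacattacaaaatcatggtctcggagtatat
Windows of 300 bases, from 250 before to 50 after a gene start, were searched on both strands for the sequences bound by interferon-activated factors. All 6 genes had a window in the RefSeq table, 10 windows in all. The core of the interferon-stimulated response element, taken as GAAA, any 2 letters and GAAA, was in 0 of the 10 windows and in 3.44% of all 32851 windows. The gamma-activated site, TTCNNNGAA, was in 1 of the 10, the Chil3 match that begins 172 bases before the gene start, and in 8.30% of all windows. The 2 patterns share no match here. No match says only that these letters are not in the window.

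Myeloid cells were taken as cells with at least 5 UMIs of Lyz2 (lysozyme), no UMI of Cd3d, Cd3e or Cd3g and under 10% mitochondrial UMIs. This gave 39 TAK-981 cells, 1.93% (1.38 to 2.63%) of the library's cells under the mitochondrial limit, and 43 vehicle cells, 1.75% (1.27 to 2.35%). All 10 myeloid markers were detected in both libraries, among them Cd14, Csf1r, Tyrobp and Fcer1g. Of the neutrophil markers Csf3r gave 23 and 17 UMIs, and Cxcr2, Retnlg and Ly6g were at 0. Trac, Cd8a, Cd8b1 and Cd4 were at 0 as well. Lyz2 itself, which chose the cells, made up 27436 and 27428 counts per 1000000 UMIs of the class (CPM), a log2 ratio of 0.00. The median depth was 8287 UMIs per TAK-981 cell and 10561 per vehicle cell.

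In these myeloid cells, 5 of the 6 genes were at least 2-fold higher in the TAK-981 library and Ccr2 was 1.36-fold higher. Among the 6372 genes with at least 10 UMIs in the class, 11.1% were at least 2-fold higher and 13.7% at least 2-fold lower. The median log2 ratio of TAK-981 over vehicle was 1.80 over the 6 genes and -0.07 over all genes measured. Summed, the 6 genes made up 7647 CPM (7365 to 7937) in TAK-981 and 2439 (2307 to 2577) in vehicle myeloid cells.

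The Ly6C pair was found in more cells and at more UMIs per cell in the TAK-981 library. Ly6c1 had 258 UMIs in 31 of 39 TAK-981 cells and 95 UMIs in 21 of 43 vehicle cells, with a lowest, median and highest count per cell of 0, 4 and 24 against 0, 0 and 15. Its level was 711 (627 to 803) against 182 (147 to 223) CPM, 3.91-fold (3.08 to 4.99) higher. Ly6c2 had 575 UMIs in 33 cells and 243 UMIs in 23 cells, with 0, 9 and 57 UMIs per cell against 0, 1 and 26. Its level was 1585 (1458 to 1720) against 466 (409 to 528) CPM, 3.40-fold (2.92 to 3.97) higher. The cells of the libraries overlapped in both genes, with cells at 0 in each. For the sum of the pair, cells with a UMI made up 84.6% of TAK-981 and 53.5% of vehicle myeloid cells, and with every cell thinned at random to 4000 UMIs 82.1% (66.5 to 92.5%) and 41.9% (27.0 to 57.9%).

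Plac8, a small cysteine-rich protein of myeloid and lymphoid cells, gave the most UMIs of the 6 genes. It had 1345 UMIs in 36 TAK-981 cells and 623 in 34 vehicle cells, with 0, 29 and 104 UMIs as the lowest, median and highest per cell against 0, 6 and 72. The level was 3706 (3511 to 3910) against 1194 (1102 to 1291) CPM, 3.10-fold (2.82 to 3.42) higher. Most cells of both libraries held some Plac8, and after thinning the medians were 15 and 3 UMIs per cell and the highest cells held 35 and 36.

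The secreted proteins among the 6 followed the same direction. Chil3 (Ym1), a chitinase-like lectin, had 192 UMIs in 18 TAK-981 cells and 51 in 13 vehicle cells. Its level was 529 (457 to 609) against 97.7 (72.8 to 129) CPM, 5.41-fold (3.96 to 7.53) higher. Fewer than 1 in 2 cells of either library held it, the median was 0 in both, and the highest cells had 22 and 14 UMIs. The highest vehicle cell alone gave 27.5% of the vehicle UMIs of Chil3. F13a1, the catalytic subunit of clotting factor XIII, had 257 UMIs in 29 TAK-981 cells and 104 in 27 vehicle cells, with 0, 5 and 28 UMIs per cell against 0, 2 and 12. Its level was 708 (624 to 800) against 199 (163 to 242) CPM, 3.55-fold (2.82 to 4.51) higher.

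**Figure D1:**
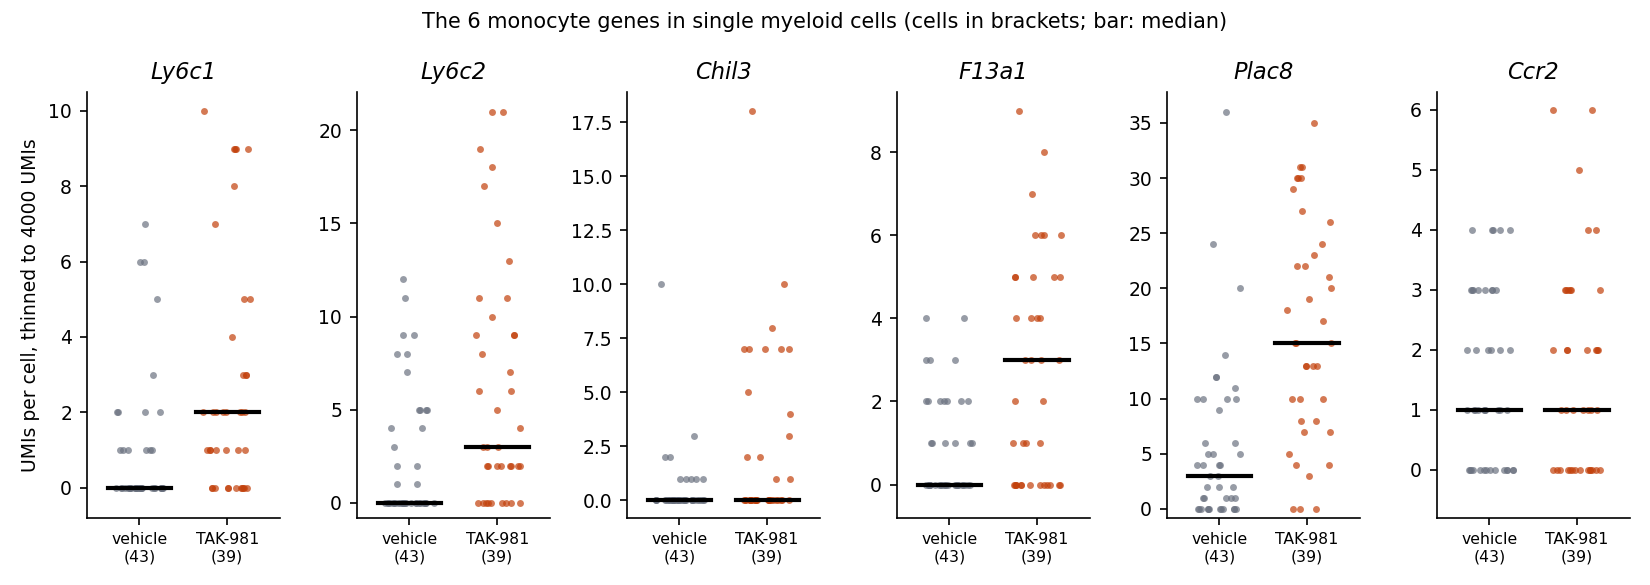
UMIs per myeloid cell of each gene after thinning every cell to 4000 UMIs, for 43 vehicle and 39 TAK-981 cells, with black bars at the median. The medians were 2 and 0 for Ly6c1, 3 and 0 for Ly6c2, 3 and 0 for F13a1 and 15 and 3 for Plac8 (TAK-981 first), and equal for Chil3 (0) and Ccr2 (1). Each gene has its own vertical scale.

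Ccr2, the receptor, stood apart from the other 5. It had 148 UMIs in 31 of 39 TAK-981 cells and 157 in 34 of 43 vehicle cells, with 0, 3 and 18 UMIs per cell against 0, 3 and 14. The level was 408 (345 to 479) against 301 (256 to 352) CPM, 1.36-fold (1.08 to 1.71) higher. After thinning, a UMI of Ccr2 was found in 64.1% and 67.4% of cells, and the log2 ratio of 0.44 went down to 0.10.

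The 4 ligands of CCR2 did not go together. Ccl2, the main ligand, had 324 UMIs in 22 TAK-981 cells and 117 in 22 vehicle cells, 3.98-fold (3.21 to 4.96) higher in TAK-981. Ccl7 had 3 and 26 UMIs, 6.03-fold (1.85 to 31.1) lower. Ccl12 had 21 and 62 UMIs in 3 cells of each library, 2.05-fold (1.23 to 3.55) lower. Ccl8 had 0 and 56 UMIs, at least 13-fold lower against a floor of 3 counts over the class, but all 56 were in 1 vehicle cell.

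More of the genes occurred together in the same cell in the TAK-981 library. At least 5 of the 6 were detected in 27 of 39 TAK-981 cells (69.2%, 52.4 to 83.0%) and 17 of 43 vehicle cells (39.5%, 25.0 to 55.6%). After thinning the numbers were 24 (61.5%) and 9 (20.9%). Over the cells of a library, the correlation of Ly6c1 with Ly6c2 was 0.92 in both, on the log2(1 + UMIs per 10000) scale. The other pairs were looser: over all 15 pairs the median was 0.39 in TAK-981 (39 cells) and 0.26 in vehicle (43 cells), with the lowest at 0.12 in both. These are descriptions over cells that share a library and differ in depth, and values at the low end of that range are no finding in counts this sparse.

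Genes that followed the sum of the 6 most closely from cell to cell were then looked up among 3592 genes found in at least 20% of myeloid cells of both libraries. Ms4a6c came first, with correlations of 0.89 in TAK-981 and 0.87 in vehicle. Ly6e (0.82 and 0.83), a relative of the Ly6C pair, Ms4a4c (0.83 and 0.79), Ms4a6b (0.74 and 0.71), Irf7 (0.72 and 0.69), a transcription factor of the interferon response, and Lst1 (0.69 and 0.73) came next. Between the libraries, Irf7 had 560 and 66 UMIs, a log2 ratio of 3.61 (3.24 to 4), Ms4a6c 1.40 (1.21 to 1.6) and Ly6e 1.32 (1.18 to 1.46). Lst1 was 0.67 (0.46 to 0.88).

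Other genes of classical monocytes were divided. Of 17 measured, 10 were above 0 on the log2 scale and 7 below, and the median log2 ratio was 0.88. At least 2-fold higher were 8, against 11.1% of all genes measured in the class, and 0 were 2-fold lower, against 13.7%. S100a8, part of calprotectin, had 46 and 9 UMIs, 7.35-fold (3.55 to 17.1) higher. Mgst1 (6.33-fold, 4.6 to 8.89), the high-affinity antibody receptor Fcgr1 (5.72-fold, 4.09 to 8.15), Ms4a4c (4.81-fold, 4.03 to 5.77) and Ifitm6 (3.94-fold, 3.15 to 4.96) were higher too. These are named for the size of their ratios. Cd14, with 785 UMIs in TAK-981 and 1369 in vehicle, was among the 7 below 0, by less than 2-fold. Of the other Ly6 genes 3 of 12 were measured in myeloid cells. Ly6e was 2.49-fold (2.26 to 2.75) higher, while the intervals of Ly6a (12 and 32 UMIs) and Ly6i (15 and 17 UMIs) reached both directions.

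Genes that macrophages switch on went the other way. Of 13 measured, 9 were at least 2-fold lower, against 13.7% of all genes measured in the class, and 1 was 2-fold higher, against 11.1%. The median log2 ratio was -1.30. The complement genes C1qa, C1qb and C1qc had 0 UMIs in TAK-981 and 100, 104 and 93 in vehicle myeloid cells, at least 23.2-fold, 24.1-fold and 21.6-fold lower against the floor of 3 counts. These UMIs came from few cells: 35 of the 43 vehicle cells had none, and the highest 2 held 121 and 94 of the 3 genes together. The mannose receptor Mrc1 had 2 and 60 UMIs, in 1 and 16 cells, and was 20.9-fold (5.53 to 176) lower. Ms4a7 had 6 and 59 UMIs, 6.84-fold (2.96 to 19.4) lower. Maf, with 17 and 8 UMIs, was the 1 that was higher, 3.06-fold (1.25 to 8.18).

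Macrophage transcripts thus differed along with the monocyte genes, and the difference in the 6 genes was measured again without the cells with 5 or more UMIs of the C1q genes together. Such cells numbered 0 of 39 and 6 of 43. In those 6 vehicle cells the 6 genes made up 2420 CPM (2111 to 2761), against 2444 (2298 to 2596) in the other 37, but 1 of the 6 cells gave 52.5% of their UMIs. Without them the ratios were 4.25-fold (3.26 to 5.6) for Ly6c1, 3.38-fold (2.87 to 3.98) for Ly6c2, 4.75-fold (3.44 to 6.65) for Chil3, 3.43-fold (2.68 to 4.41) for F13a1, 3.14-fold (2.83 to 3.49) for Plac8 and 1.32-fold (1.04 to 1.68) for Ccr2. With every cell that held any C1q or Mrc1 UMI left out, 38 and 24 cells remained and the median log2 ratio of the 6 genes was 1.82. The median of the macrophage genes was then -0.46. C1qa, C1qb, C1qc and Mrc1 belong to that list and are at 0 by this cut, so its median moves in part by rule. Without cells with 2 or more neutrophil UMIs the median of the 6 genes was 1.69, and without those with 2 or more dendritic cell UMIs it was 1.78.

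**Figure D2:**
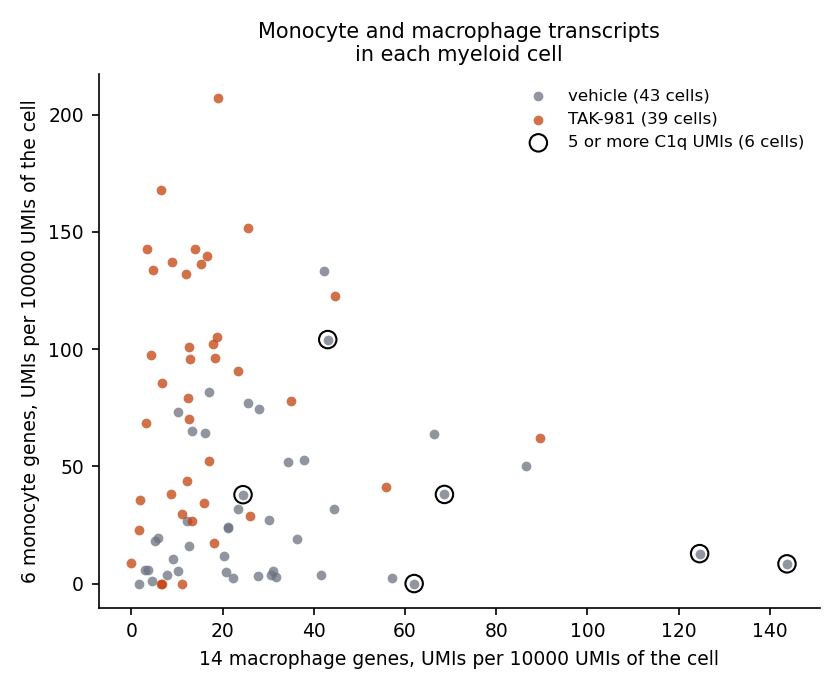
Each point is 1 myeloid cell, by its UMIs per 10000 from 14 macrophage genes (horizontal) and from the 6 monocyte genes (vertical), with rings on the 6 cells that held 5 or more C1q UMIs. Medians of the vertical axis were 79.0 in TAK-981 and 19.1 in vehicle cells, and the highest cells were at 207 and 133. Medians of the horizontal axis were 12.7 and 24.5.

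Genes of patrolling monocytes, the Ly6C-low kind, had a median log2 ratio of -0.18 over 6 measured. Spn was higher (8 and 3 UMIs), Cx3cr1 (2 and 9) and Cd36 (3 and 13) were lower by more than 2-fold, and all 6 intervals reached both directions. Of 8 transcription factors of the myeloid line, Cebpa alone differed by 2-fold, with 8 and 31 UMIs, 2.69-fold (1.21 to 6.78) lower. A count of 1 in 8 is near the share of all genes measured in myeloid cells that were 2-fold lower, 13.7%. Cebpb, at 94 and 269 UMIs, was 1.99-fold (1.57 to 2.54) lower and Spi1 (PU.1) 1.33-fold (1.12 to 1.59) higher. Their median was -0.39.

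**Figure D3:**
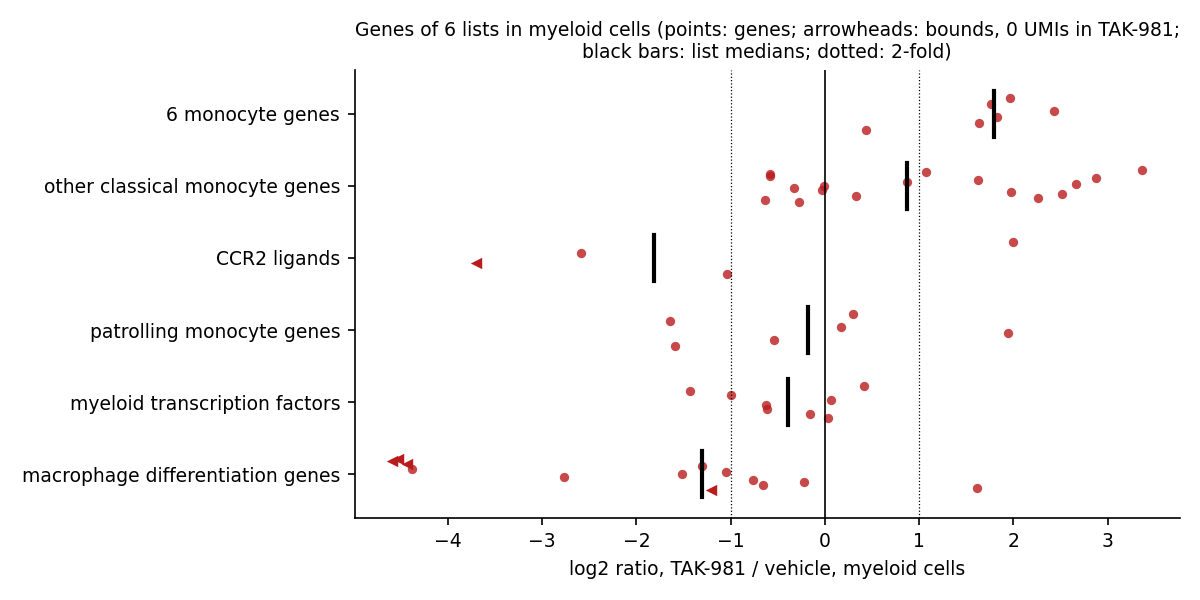
Log2 ratio of TAK-981 over vehicle in myeloid cells for each measured gene of 6 lists, with the list medians as black bars: 1.80 for the 6 genes, 0.88 for other classical monocyte genes, -1.81 for CCR2 ligands, -0.18 for patrolling monocyte genes, -0.39 for transcription factors and -1.30 for macrophage genes. Arrowheads are bounds for genes with 0 UMIs in TAK-981.

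T cells, with at least 2 UMIs of the Cd3 genes and the same mitochondrial limit, numbered 45 in TAK-981 and 60 in vehicle. Beside the Cd3 genes, which chose the cells, the other 7 T cell markers were detected in both. Lyz2 had 1 UMI in TAK-981 and 0 in vehicle T cells, and Chil3 and F13a1 had 0 UMIs in all T cells of both libraries. The other 4 genes were all measured, and all 4 were at least 2-fold higher in TAK-981, with a median log2 ratio of 1.83. Among the 7868 genes measured in T cells 6.32% were at least 2-fold higher and 9.32% at least 2-fold lower, and the median was -0.04. The median depth was 7156 and 9068 UMIs per cell.

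Ly6c2 had 117 UMIs in 17 of 45 TAK-981 T cells and 67 in 20 of 60 vehicle T cells, a level of 263 (218 to 315) against 77.7 (60.2 to 98.6) CPM, 3.39-fold (2.49 to 4.64) higher. The median cell of both libraries had 0, and the highest had 16 and 14 UMIs. Ly6c1 had 48 UMIs in 17 cells and 25 in 17 cells, 108 (79.6 to 143) against 29.0 (18.8 to 42.8) CPM, 3.72-fold (2.25 to 6.30) higher. Plac8 had 79 UMIs in 12 cells and 20 in 12 cells, 178 (141 to 221) against 23.2 (14.2 to 35.8) CPM, 7.66-fold (4.64 to 13.2) higher, but 1 TAK-981 cell gave 35.4% of its UMIs. That cell was the T cell with the Lyz2 UMI, and without it the log2 ratio of Plac8 was 2.33 in place of 2.94. The 10 myeloid markers together had 123 and 117 UMIs in T cells, 277 and 136 CPM, and their part in the values of the 4 genes was not tested. Ccr2 had 35 UMIs in 13 cells and 24 in 10 cells, 78.7 (54.8 to 110) against 27.8 (17.8 to 41.4) CPM, 2.83-fold (1.64 to 4.97) higher. After thinning to 4000 UMIs, a UMI of Ly6c2 was in 33.3% (20.0 to 49.0%) and 16.7% (8.29 to 28.5%) of T cells, of Plac8 in 24.4% and 11.7%, and of Ccr2 in 17.8% and 8.33%. All of these intervals overlapped between the libraries.

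The Ly6C pair was found in T cells with CD8 transcripts. Cells with at least 1 UMI of Cd8a or Cd8b1 numbered 22 in TAK-981 and 37 in vehicle, and held 115 of the 117 and all 67 UMIs of Ly6c2. In them Ly6c2 was in 16 of 22 and 20 of 37 cells, with 0, 3.5 and 16 UMIs as the lowest, median and highest against 0, 1 and 14. Its level was 556 (459 to 667) against 127 (98.6 to 162) CPM, 4.37-fold (3.20 to 5.99) higher, and Ly6c1 was 4.87-fold (2.88 to 8.45) higher. In the 23 and 23 T cells without CD8 transcripts Ly6c2 had 2 and 0 UMIs and Ly6c1 had 4 and 2. Cells with Cd4 and no CD8 transcripts, 13 and 16, had 0 and 0 UMIs of Ly6c2, which allows levels of up to 26.5 and 17 CPM.

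Ccr2 and Plac8 were divided otherwise. Ccr2 in T cells with CD8 transcripts had 27 and 8 UMIs, in 9 of 22 and 5 of 37 cells, 8.59-fold (3.80 to 21.9) higher in TAK-981. In those without it had 8 and 16 UMIs, in 4 and 5 cells, a ratio of 0.707 (0.262 to 1.75). The 2 intervals did not overlap, and the difference between the subsets was not tested. It rests on few cells: 1 vehicle cell held 8 of the 16 UMIs. Of the cells with CD8 transcripts, 2 in TAK-981 and 4 in vehicle also held Cd4. Of the 27 and 8 Ccr2 UMIs, the 2 TAK-981 cells held 3 and 6, and the 4 vehicle cells 0, 1, 2 and 2. The TAK-981 cell with most Ccr2, at 6 UMIs, had 1 UMI of the CD8 genes and 1 of Cd4. Plac8 was higher in both: 42 and 18 UMIs with CD8 transcripts, 5.94-fold (3.34 to 11), and 37 and 2 without, of which 1 TAK-981 cell held 28.

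**Figure D4:**
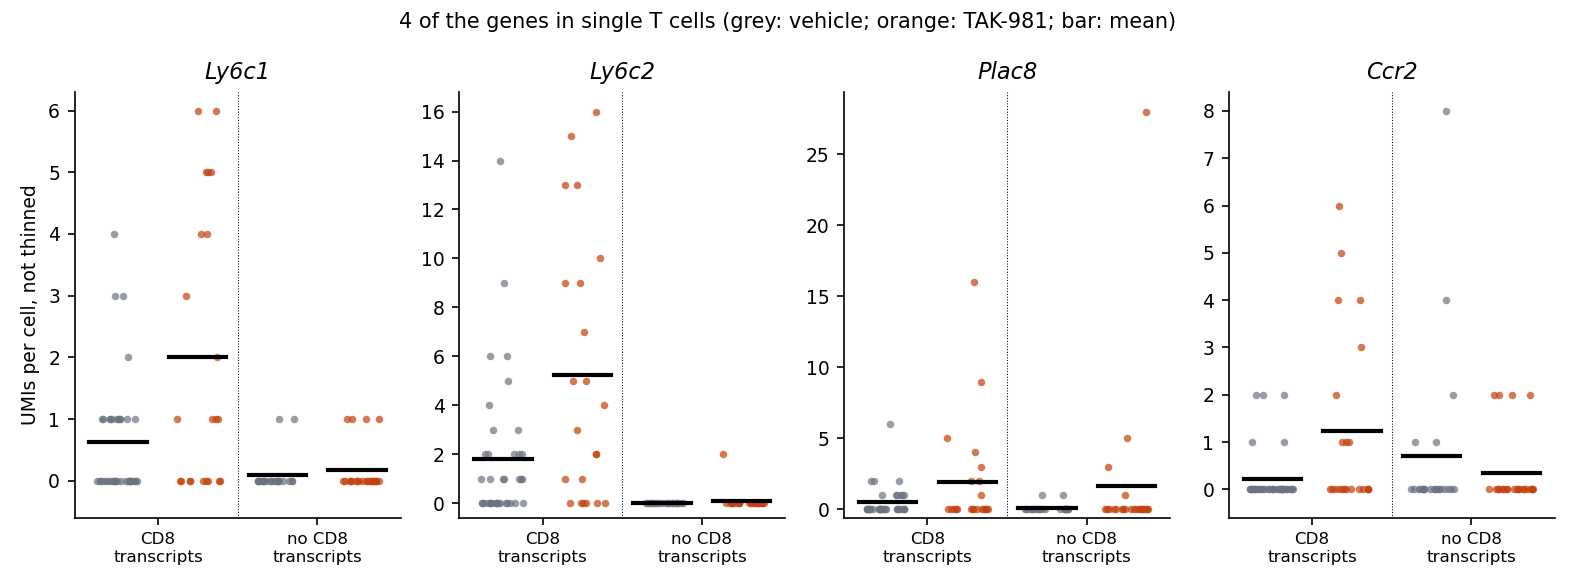
UMIs per T cell, not thinned, of the 4 genes found in T cells, split by whether the cell held a UMI of Cd8a or Cd8b1 (22 TAK-981 and 37 vehicle cells with, 23 and 23 without). Black bars are means. Ly6c2 lies above 2 UMIs in cells with CD8 transcripts alone, and the highest Plac8 cell, at 28 UMIs, has no CD8 transcripts.

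Across T cells, Ly6c2 was most closely followed by Ly6c1 (correlations of 0.81 in TAK-981 and 0.67 in vehicle), then by the killer cell receptor genes Klrd1 (0.56 and 0.59) and Klrk1 (0.62 and 0.42), by Cd8b1 (0.68 and 0.52) and Cd8a (0.61 and 0.43) and by Ostf1 (0.43 and 0.36), among 4193 genes and over 45 and 60 cells. Between the libraries, Cd8b1 and Cd8a had log2 ratios of 0.07 (-0.22 to 0.36) and -0.11 (-0.55 to 0.32).

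Genes of effector T cells were higher beside the Ly6C pair. Of 20 measured, 10 were at least 2-fold higher, against 6.32% of all genes measured in T cells, and 0 were 2-fold lower, against 9.32%. The median log2 ratio was 0.94. The granzymes Gzma (98 and 19 UMIs, 10.0-fold, 6.08 to 17.3) and Gzmb (133 and 40, 6.45-fold, 4.50 to 9.43), perforin Prf1 (33 and 10, 6.40-fold), the death ligand Fasl (33 and 11, 5.82-fold), the chemokine Ccl5 (591 and 239, 4.80-fold) and Gzmk (58 and 32, 3.52-fold) led the list. Gzma came from 5 and 2 cells. Of 10 genes of naive and memory T cells 1 was 2-fold lower, the transcription factor Tcf7 (20 and 99 UMIs, 2.55-fold, 1.57 to 4.36), and their median was -0.28. A count of 1 in 10 is near the share of all genes measured in T cells that were 2-fold lower, 9.32%. Ly6a (Sca-1), a further Ly6 gene, was 2.35-fold (1.97 to 2.79) higher and Ly6e 1.02-fold (0.92 to 1.13).

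Transcripts of B cell and A20 cells in these T cells summed to 298 UMIs in TAK-981 and 907 in vehicle over 6 markers. Cells with 5 or more of them numbered 6 and 13. Without those cells the median log2 ratio of the 4 genes was 1.54. In myeloid cells the same markers summed to 72 and 79 UMIs, and without the 3 and 3 cells with 5 or more the median was 1.70.

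B cell/A20 cells, with at least 2 UMIs of Cd79a and Cd79b and none of Lyz2 or the Cd3 genes, served as the background, since free RNA in the droplets reaches all cells. They numbered 1748 and 2184, with median depths of 16310 and 22404 UMIs. Chil3 had 0 UMIs in all of them, and F13a1 had 1 and 0. Plac8 was found in 0.286% and 0.595% of cells and Ccr2 in 0.0572% and 0.183%, far below their shares in myeloid and T cells. The rule leaves out cells with any UMI of Lyz2 or the Cd3 genes. These shares can therefore understate free RNA of myeloid and T cells. Ly6c2 was found in 5.21% and 4.62% of cells and Ly6c1 in 2.98% and 2.79%, and after thinning to 4000 UMIs in 1.54% and 1.14% and in 1.14% and 0.778%. Ly6c2 had more UMIs than Plac8 here (148 against 13 in TAK-981), the reverse of myeloid cells (575 against 1345).

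Between the libraries, the B cell/A20 cells differed less in the Ly6C pair. Ly6c1 was at 2.28 (1.79 to 2.86) and 1.55 (1.23 to 1.92) CPM and Ly6c2 at 4.55 (3.85 to 5.35) and 3.02 (2.57 to 3.53), 1.47-fold (1.06 to 2.04) and 1.51-fold (1.20 to 1.90) higher in TAK-981. Of the 3 genes measured in this class 0 were at least 2-fold higher, against 3.32% of 12242 genes. Plac8 was 2-fold lower, as were 1.56% of genes, with 13 and 75 UMIs and a log2 ratio of -1.82 (-2.80 to -0.96). That value rested on 3 vehicle cells with 2 or more UMIs of Siglech and Ccr9, markers of plasmacytoid dendritic cells: without them Plac8 had 13 and 23 UMIs, and the log2 ratio was -0.12 (-1.22 to 0.92). Without the same cells Ly6c1 was 1.70-fold (1.21 to 2.38) and Ly6c2 1.76-fold (1.38 to 2.23) higher in TAK-981.

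The 188 and 168 remaining cells, of none of these classes, had 5 of the genes at 10 or more UMIs. Plac8 (142 and 42 UMIs, 4.05-fold, 2.85 to 5.86), Ly6c2 (59 and 21 UMIs, 3.37-fold, 2.01 to 5.83) and Ly6c1 (23 and 12 UMIs, 2.3-fold, 1.1 to 5.06) were at least 2-fold higher in TAK-981, as were 9.34% of the genes measured in these cells. F13a1 (3 and 9 UMIs, each from 1 cell) was 2-fold lower, as were 1.83%. Plac8 came from 6 and 3 cells and Ly6c2 from 8 and 7, so the values rest on few cells. Both TAK-981 cells with 2 or more UMIs of Siglech and Ccr9 were among the remaining cells. They held 47 of the 59 Ly6c2, 12 of the 23 Ly6c1 and 37 of the 142 Plac8 UMIs. Of the 5 such vehicle cells only 2 were among the remaining cells, and the others were classed as B cell/A20 cells. The part of this split in the ratios was not tested. Among the remaining cells, 3 in TAK-981 and 1 in vehicle had 2 or more UMIs of Cd209a, a dendritic cell marker. The 3 TAK-981 cells held 89 of the 142 Plac8, 25 of the 59 Ly6c2 and 7 of the 23 Ly6c1 UMIs. Of these 3, 1 also held Siglech or Ccr9 UMIs. The vehicle cell held 9 of the 42 Plac8 and 9 of the 21 Ly6c2 UMIs.

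**Figure D5:**
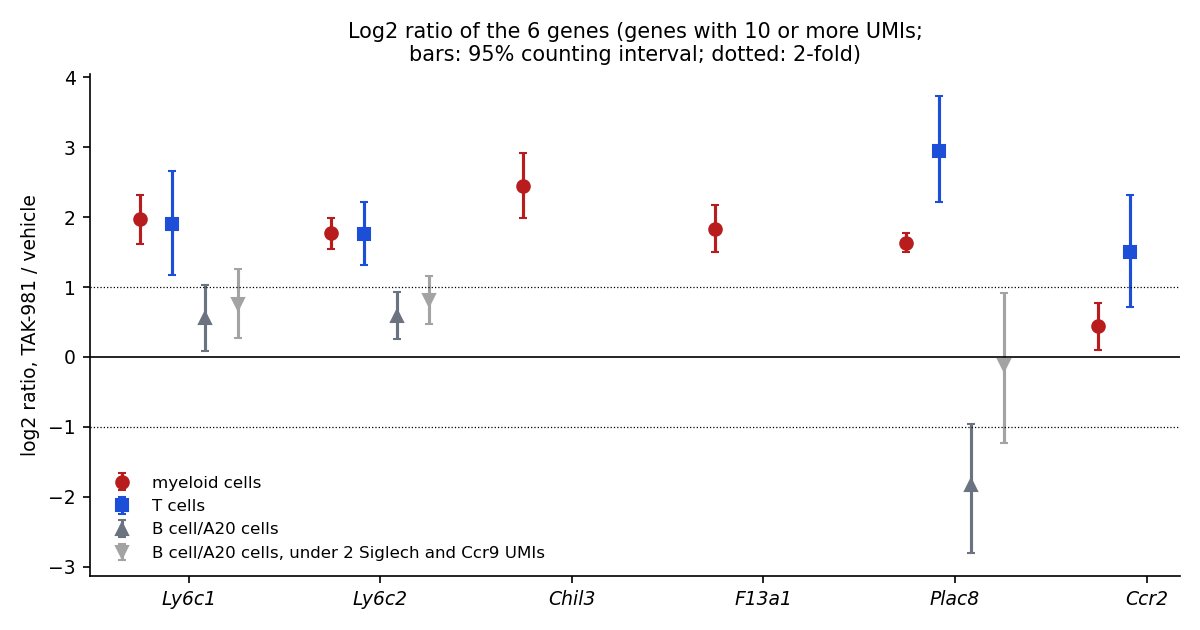
Log2 ratio of TAK-981 over vehicle with its 95% counting interval for each gene with at least 10 UMIs in myeloid cells, T cells, B cell/A20 cells, and B cell/A20 cells under 2 UMIs of Siglech and Ccr9. All 6 genes lie above 0 in myeloid cells, between 0.44 (Ccr2) and 2.44 (Chil3), and 4 lie above 0 in T cells, between 1.5 (Ccr2) and 2.94 (Plac8). Chil3 and F13a1 have values in myeloid cells alone.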

How the data were processed

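Single-cell RNA was measured in 1 library per arm. The deposited files hold, per the file headers, whole-number UMI counts per gene and barcode, which the authors had not normalized. Barcodes had been selected before deposit, since the lowest totals were 4670 and 5965 UMIs. Cell Ranger 2.1.1 and Seurat 2 are listed, with no role, per the submitters' processing notes, and the genome build is not given in the sources used here. All other steps were run in Python 3.11.15 (numpy 2.4.6, scipy 1.17.1, pandas 2.3.3, matplotlib 3.10.9). The ratios and their intervals alone were tested on simulated data, which were sums over a class without differences between cells.

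Cells were classed by transcript counts alone, without clustering. The lists, rules and genes were chosen with earlier results of these data known. UMIs were summed over the cells of a class and divided by the class total. Ratios carry exact conditional binomial 95% intervals, levels exact Poisson intervals and shares exact Clopper-Pearson intervals. These take each UMI as independent, so they are too narrow where RNA differs from cell to cell. Ratios were computed for all genes, and genes with at least 10 UMIs over both libraries were counted as measured. Being at least 2-fold apart is a size, not a test. Against 0 UMIs a ratio is a bound from 3 counts over the class. Cells were thinned without replacement to 4000 or 1000 UMIs, and no cell was shallower. No doublet caller was run, and cells with 5 or more B cell/A20 UMIs were left out in an alternative. All 6 genes were named, with up to 6 genes per list, those with the largest ratios, and the 6 genes closest by correlation. A gene that this rule names in a list is not reported here. Itgam had 2 rows, and that with more UMIs was used. Settings were changed 1 at a time. The cuts at 50 Lyz2 UMIs, at any C1q or Mrc1 UMI and by CD8 transcripts were added after the data had been seen.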

Additional observations from a re-analysis of the deposited data

Results flagged for a closer look

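Plac8 had log2 ratios of opposite sign between the cell classes, but the negative value rested on a few vehicle cells. Its log2 ratio of TAK-981 over vehicle was 1.63 (1.5 to 1.77) in myeloid cells and 2.94 (2.22 to 3.72) in T cells, and -1.82 (-2.80 to -0.96) in B cell/A20 cells. The difference was not tested, since each arm is 1 library. In B cell/A20 cells the value rested on 13 and 75 UMIs, and 1 vehicle cell held 42.7% of the vehicle count. Without cells with 2 or more UMIs of Siglech and Ccr9 it was -0.12 (-1.22 to 0.92).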

How the results depend on the processing

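In myeloid cells 5 of the 6 genes stayed at least 2-fold higher under all 17 alternatives, and their median log2 ratio ran from 1.52 to 1.85. It moved beyond its tolerance under thinning to 1000 UMIs and with equal weight for each cell (1.52 in both). Ccr2 ran from 0.04 to 0.54 and was never 2-fold higher. In T cells the median ran from 1.37 to 2.74 over 16 alternatives. The value of 2.74 came with thinning to 1000 UMIs, where 3 genes were left to measure. In T cells without CD8 transcripts 2 of the 4 genes were measured and the number at least 2-fold higher was 1, and Ccr2 was the only one of the 6 genes to change sign under any alternative, at -0.50. In myeloid cells the median ran from 0.33 (equal weight for each cell) to 0.98 for other classical monocyte genes, from -2.92 to -0.17 for CCR2 ligands and from -1.71 to -0.46 for macrophage genes. The value of -0.46 came with the cut at any C1q or Mrc1 UMI, which itself takes these genes out of the macrophage list. The cause of the other shifts was not tested. Scaling by median of ratios moved the medians by 0.03. No paired analysis was possible because each arm is 1 library, and for the same reason no replicate could be left out. Differences between mice are not covered by any interval.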

Other observations

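A few cells outside the myeloid and T classes also held the genes. Cells with 2 or more UMIs of Siglech and Ccr9, markers of plasmacytoid dendritic cells, which carry Ly6C, numbered 2 in TAK-981 and 5 in vehicle. Ly6c2 was found in all of them, at 23 to 24 UMIs per TAK-981 cell and 3 to 11 per vehicle cell. It was at 3521 (2587 to 4682) and 538 (381 to 739) counts per 1000000 UMIs of these cells, 6.54-fold (4.18 to 10.3) higher in TAK-981. Plac8 had 37 and 89 UMIs in them, 2.20-fold (1.46 to 3.26) higher, while Chil3, F13a1 and Lyz2 had 0. Of the 5 vehicle cells 4 also held 5 or more B cell/A20 UMIs, and of the 2 TAK-981 cells 0. The part of this in the ratios was not tested. So few cells allow no statement on the arms.

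Barcodes with 10% or more mitochondrial UMIs, 376 and 124, held no cell that met both the Lyz2 and the Cd3 limit of the myeloid class, in either library. The 6 genes together had 19 and 18 UMIs in them.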
